A study of Mus musculus with 25 samples.

Results

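Amino acids that are not used for protein synthesis are broken down mainly in the liver, and 39 genes encoding enzymes of this breakdown were followed here across 5 groups of mouse liver and liver tumor tissue. They were taken as a list of gene symbols matched to Ensembl gene identifiers, from 48795 genes in the files, and grouped by amino acid into 8 classes. The classes were aromatic (10 genes), sulfur (8), histidine (4), proline (3), branched-chain (3), glycine and serine (6), lysine (2), and the aminotransferases of alanine and aspartate (3). All 39 passed the filter on low counts and were tested with 15625 genes in all.

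RNA sequencing had been done on 25 tissue samples from male C57BL/6J mice. DEN is diethylnitrosamine, a liver carcinogen given by a single injection of 25 mg/kg at 2 weeks of age. WD is a western-style diet (AIN-76A) and CD its control diet (AIN-93G), fed from weaning until harvest at about 36 weeks of age. The nonDEN L-CD group (3 libraries) was liver of mice that got no DEN and ate CD, and nonDEN L-WD (4) was liver of mice that got no DEN and ate WD. DEN L-CD (4) was liver of mice given DEN and fed CD, whose tumors were too small to separate and may be contained in it. DEN PT-WD (8) was peritumoral liver and DEN T-WD (6) was tumor, both from mice given DEN and fed WD. No group combined DEN and WD without tumors in the same liver, and every value comes from whole tissue, in which fewer cells of a type and less RNA per cell cannot be told apart. The labels do not say which tumor and peritumoral samples came from the same mouse. Where nothing ties libraries to separate mice, p-values measure only the spread between these libraries.

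The pathways are known to run mostly in hepatocytes. Carbon skeletons of amino acids enter the citric acid cycle or become glucose or ketone bodies, and nitrogen goes to urea. The sulfur class centers on the methionine cycle, in which S-adenosylmethionine, the methyl donor of the cell, is made, used and regenerated. The glycine class handles glycine, serine and the methylated glycines (sarcosine and dimethylglycine) that arise from choline. Many of these genes are known to respond to feeding, glucagon and glucocorticoids, and several are known to be expressed unevenly between the portal and central ends of the liver lobule.

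Levels between genes are given in TPM, a gene's length-corrected share of the transcripts of a library. Averaged over the 5 group means, the members ran from 5.93 TPM for *Sdsl* to 1382 TPM for *Bhmt*, which converts homocysteine back to methionine. *Tdo2*, which opens the tryptophan ring, averaged 1071 TPM, and *Mat1a*, which makes S-adenosylmethionine, 1056 TPM. Of the 39 genes, 12 were among the 500 most abundant and 27 among the 1000 most abundant genes of the tissue. *Dhtkd1*, *Acmsd* and *Sdsl* were the lowest members, at 13.2, 10.5 and 5.93 TPM.

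The summed level of all 39 genes was 10587 to 14271 TPM in nonDEN L-CD, 11138 to 15462 TPM in nonDEN L-WD, 11094 to 12946 TPM in DEN L-CD and 9603 to 16180 TPM in DEN PT-WD. In DEN T-WD it was 6550 to 9891 TPM. The non-tumor groups overlapped each other, and the tumor with the highest sum, replicate 5, was the only tumor to reach into their range. By class, the ratio of the tumor mean to the peritumoral mean was 0.58 for the sulfur class, 0.61 for lysine, 0.63 for aromatic, 0.68 for proline and for glycine and serine, 0.85 for branched-chain, 0.9 for histidine and 0.99 for the alanine and aspartate aminotransferases. No test was made on these sums.

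**Figure D1:**
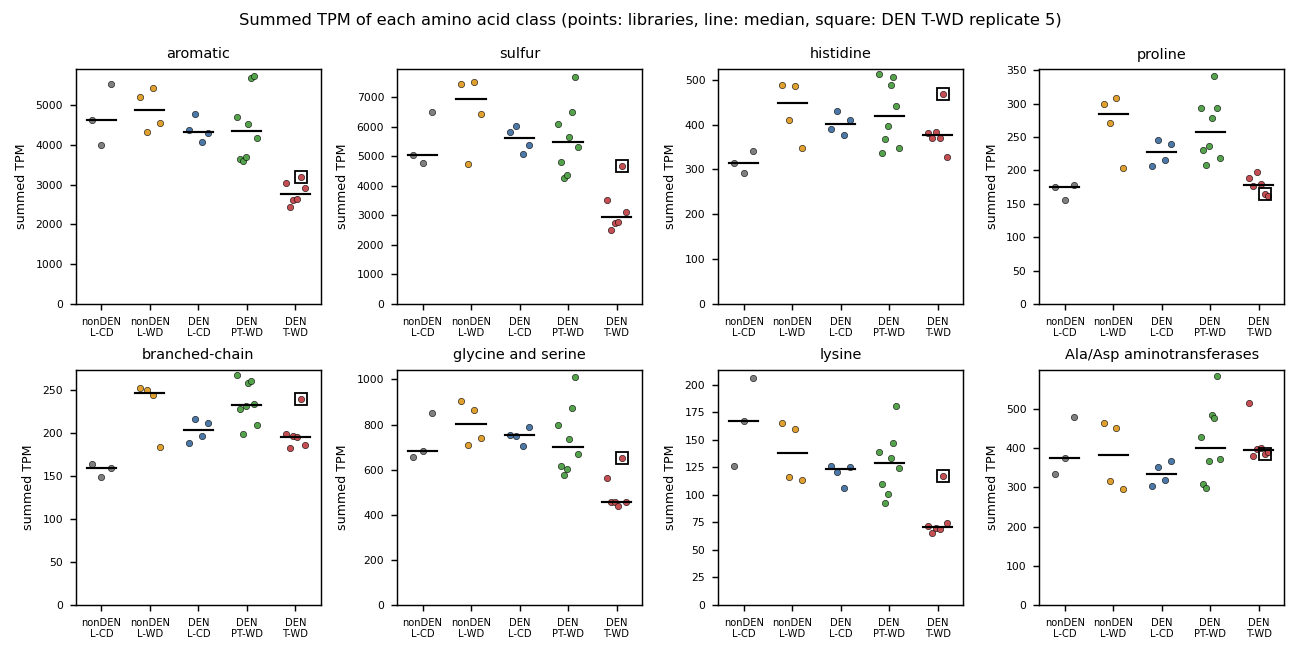
Each panel plots the summed TPM of the genes of a class (vertical axis) in every library of the 5 groups (horizontal axis), with the group median as a line and DEN T-WD replicate 5 in a square. The sulfur sums were 2490 to 4679 TPM in tumors and 4270 to 7691 TPM in peritumoral liver, and the histidine sums overlapped, at 327 to 468 and 337 to 512 TPM.

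The comparison of DEN T-WD with DEN PT-WD asked how tumors differed from the liver around them. Of the 39 members, 29 were lower and 0 were higher in tumors at an adjusted p of at most 0.05 (edgeR quasi-likelihood test, Benjamini-Hochberg over 15625 genes), where 18.1% of all genes were lower and 19.5% higher. With a change of 2-fold or more (log2 of 1) required too, 7 members were lower, against 3.09% of all genes, and 0 were higher, against 4.81%. At an unadjusted p under 0.05 *Sdsl* was the 1 higher member, and among higher members DESeq2 called 0 and limma on TPM 1. The shares of all genes under these rules are not given. The 7 were *Prodh*, *Hpd*, *Ahcy*, *Bhmt*, *Dmgdh*, *Gnmt* and *Csad*. The median log2 fold change was -0.66 over the members and 0.01 over all genes. Values of single genes below are normalized counts, that is expected counts scaled to TMM library sizes, which compare libraries but not genes. All 6 tumors lay below all 8 peritumoral libraries for 17 members, against 5.18% of all genes, and above them for 0, against 4.29%. Without DEN T-WD replicate 5 the same held for 23 members, against 8.51% of all genes.

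**Figure D2:**
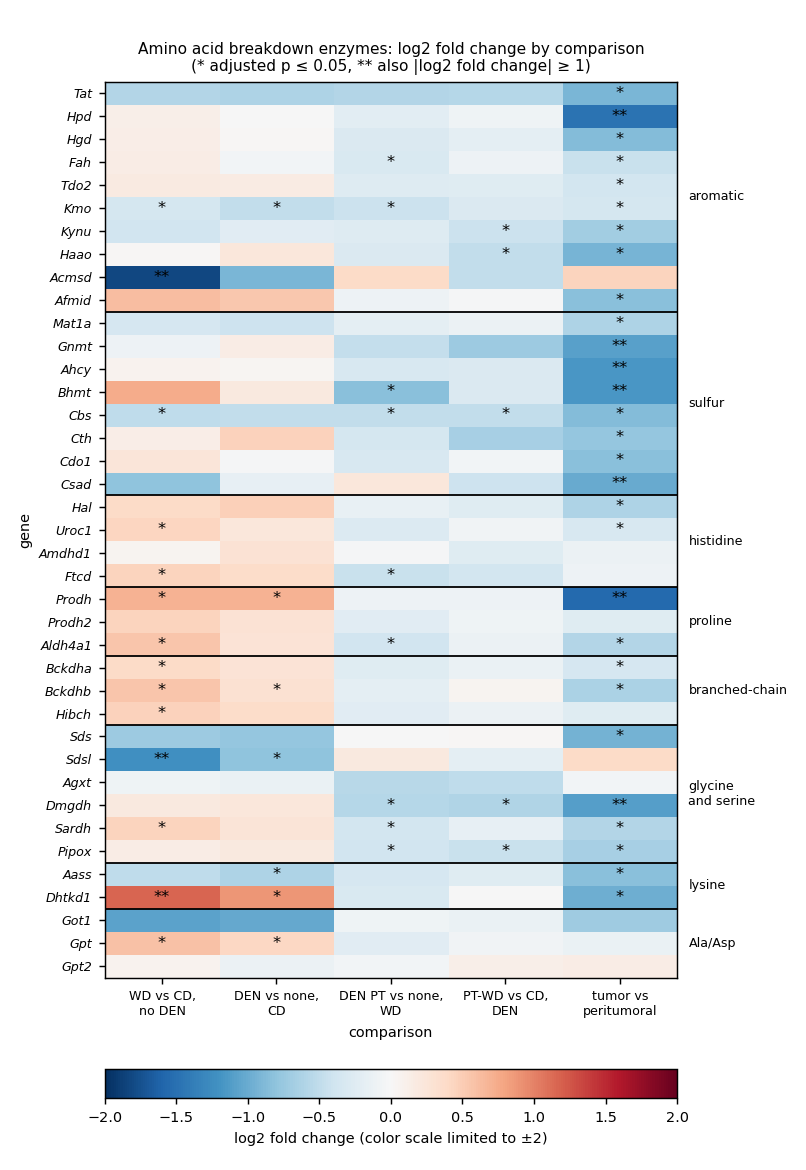
Color gives the log2 fold change (scale limited to -2 to 2) of each member gene (rows, by class) in each of the 5 comparisons (columns), and asterisks mark genes past the thresholds given in the title. The tumor column carries 29 marks, all on lower genes, and the alanine and aspartate aminotransferases carry none there.

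Among genes of tyrosine breakdown, *Hpd*, which turns 4-hydroxyphenylpyruvate into homogentisate, had normalized counts of 8035 to 13492 in tumors (median 10460) and of 20731 to 45944 in peritumoral liver (median 28026). The groups did not overlap, and the log2 fold change was -1.47 ± 0.17 (SE, adjusted p = 1.20e-06). *Tat*, the first enzyme of the pathway, *Hgd*, which opens the homogentisate ring, and *Fah*, the last enzyme, were also lower, at -0.92, -0.87 and -0.44 (adjusted p = 0.00828, 1.17e-05 and 1.37e-04). *Tat* overlapped between the groups, at 7827 to 17084 in tumors and 8646 to 43316 around them.

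In tryptophan breakdown *Haao*, the 3-hydroxyanthranilate dioxygenase of the kynurenine pathway, had the smallest adjusted p of the aromatic class. Its normalized counts were 2569, 2796, 3095, 3099, 3261 and 3086 in tumors 1 to 6, against 4670 to 7961 (median 5298) in peritumoral liver. The 6 tumors stood close together and below every peritumoral library, and the log2 fold change was -0.93 ± 0.095 (SE, adjusted p = 2.32e-07). *Tdo2*, the first and rate-limiting step and the most abundant gene of the class, was lower by less. It had 29187 to 35677 in tumors (median 31660) and 34309 to 48426 in peritumoral liver (median 40302), which overlapped, with a log2 fold change of -0.37 ± 0.11 (SE, adjusted p = 0.00955). *Kynu* (kynureninase), *Afmid* (kynurenine formamidase) and *Kmo* (kynurenine monooxygenase) were lower, at -0.69, -0.84 and -0.35 on the log2 scale (adjusted p = 3.04e-05, 4.99e-04 and 0.0036). *Acmsd*, which diverts the pathway away from NAD synthesis, did not pass, at 0.45 ± 0.35 (SE, adjusted p = 0.332).

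All 8 genes of the sulfur class were lower in tumors. *Bhmt* had normalized counts of 21822, 17537, 22835, 22395, 44327 and 24619 in tumors 1 to 6 and of 45135 to 66823 (median 61798) in peritumoral liver. Tumor 5 stood just below the lowest peritumoral library and the other 5 far below, and the log2 fold change was -1.16 ± 0.22 (SE, adjusted p = 2.83e-04). *Ahcy*, which hydrolyzes S-adenosylhomocysteine, had 10456 to 16418 in tumors and 19986 to 51997 in peritumoral liver, a log2 fold change of -1.16 ± 0.17 (SE, adjusted p = 1.67e-05). *Gnmt*, the glycine N-methyltransferase that disposes of excess S-adenosylmethionine, had 6110, 3575, 3578, 3937, 12612 and 5059 in tumors 1 to 6. In peritumoral liver it had 7183 to 21946, so that only tumor 5 overlapped, and the log2 fold change was -1.09 ± 0.27 (SE, adjusted p = 0.00307).

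The branch from homocysteine to cysteine and taurine was lower too. *Cbs*, the first step of transsulfuration, and *Cth*, the second, had log2 fold changes of -0.86 and -0.78 (adjusted p = 2.75e-05 and 0.0119). *Cdo1*, the cysteine dioxygenase, had 12990 to 16937 in tumors (median 14878) and 22695 to 34354 in peritumoral liver (median 25538), without overlap, at -0.84 ± 0.12 (SE, adjusted p = 1.03e-05). *Csad*, which makes hypotaurine, was lower, at -1.01 (adjusted p = 0.00374) with overlapping groups, and *Mat1a* by -0.61 (adjusted p = 0.00418). Reads of *Ahcy* and *Bhmt* can be shared with near copies: 68.7% of the 50-base words of *Ahcy* also occur in other genes, most of them in *Gm4737*, and 26.1% of those of *Bhmt*, most of them in *Gm5096*. *Afmid* shares 41.32% of its words, mostly with the overlapping *Gm20708*, and *Aldh4a1* 30.03%, mostly with the overlapping *Gm21969*, so their values are uncertain too.

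Promoter windows of these methionine cycle genes are shown because the genes lay together at the low end in tumors, with the *Hpd* window beside them. The windows run from 250 bases before to 50 bases after the RefSeq start site (GRCm38.p6) and are written in the direction of the gene. Capitals mark matches, on either strand, to CCAAT, the CCAAT box, and to AGGTCA, the core letters of many nuclear receptor elements. The AGGTCA search was added after the sequences had been seen. *Bhmt* is at chr13:93637709-93638008, *Gnmt* at chr17:46729116-46729415, *Ahcy* at chr2:155074448-155074747 and *Hpd* at chr5:123182674-123182973, all on the minus strand.
Bhmt: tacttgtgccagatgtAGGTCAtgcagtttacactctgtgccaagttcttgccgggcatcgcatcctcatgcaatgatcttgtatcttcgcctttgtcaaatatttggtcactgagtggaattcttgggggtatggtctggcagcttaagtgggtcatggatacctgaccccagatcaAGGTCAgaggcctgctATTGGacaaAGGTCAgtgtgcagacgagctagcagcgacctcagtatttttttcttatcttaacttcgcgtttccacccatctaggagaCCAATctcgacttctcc
Gnmt: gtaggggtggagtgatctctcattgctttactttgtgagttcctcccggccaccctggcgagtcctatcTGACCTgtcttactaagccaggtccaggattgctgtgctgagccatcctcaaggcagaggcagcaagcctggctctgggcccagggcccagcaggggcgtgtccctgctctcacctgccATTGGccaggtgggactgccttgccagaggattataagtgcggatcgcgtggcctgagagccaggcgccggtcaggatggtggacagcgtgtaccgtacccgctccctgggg
Ahcy: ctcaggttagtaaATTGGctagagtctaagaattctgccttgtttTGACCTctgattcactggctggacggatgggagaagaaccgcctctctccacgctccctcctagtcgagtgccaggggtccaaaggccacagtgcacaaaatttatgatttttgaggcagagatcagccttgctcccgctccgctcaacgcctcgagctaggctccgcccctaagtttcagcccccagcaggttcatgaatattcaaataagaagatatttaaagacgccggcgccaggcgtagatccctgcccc
Hpd: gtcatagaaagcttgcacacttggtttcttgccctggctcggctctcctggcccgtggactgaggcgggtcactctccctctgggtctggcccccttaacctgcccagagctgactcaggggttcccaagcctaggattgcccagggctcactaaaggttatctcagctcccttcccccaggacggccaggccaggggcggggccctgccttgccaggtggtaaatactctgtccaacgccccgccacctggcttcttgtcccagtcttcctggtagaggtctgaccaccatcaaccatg
The *Hpd* window holds neither motif, and the RefSeq start site of *Bhmt* lies 203 bases from the start of the gene in GENCODE. Over all 32851 windows, CCAAT was found in 37.4% and AGGTCA in 16.3%. Among the 32 members with a window, 13 held AGGTCA and 16 the CCAAT box. The TATA box pattern TATAAA (13.6% of all windows), TTGCNNAA, a C/EBP pattern (10.8%), CAAAGTCCA, an HNF4 pattern (0.475%), TGTTTAC, a FOXA pattern (3.65%) and CACGTG, the E box (7.15%), were found in 0 of the 7 genes past both thresholds in tumors. Windows were found for 32 of the 39 members, and any of these 7 genes without a window counts as holding no motif. Among those 7, CCAAT was found in 4 (*Bhmt*, *Ahcy*, *Gnmt* and *Csad*), and the AGGTCA letters in 3, which are the methionine cycle genes shown. Of the 32 members, TATAAA was in 4 (*Hgd*, *Tdo2*, *Hal* and *Ftcd*), the C/EBP pattern in 4 (*Hgd*, *Hal*, *Prodh2* and *Aass*), the E box in 2 (*Cbs* and *Dhtkd1*), the HNF4 pattern in 1 (*Pipox*) and the FOXA pattern in 0. The longer HNF1 palindrome was in 0.00913% of all windows and in 0 members. A match or its lack describes these letters only.

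The genes of methylated glycine breakdown were lower in tumors, and those of serine and glyoxylate were uneven. *Dmgdh*, the mitochondrial dimethylglycine dehydrogenase, had 3893, 3398, 4193, 3725, 4611 and 4005 in tumors 1 to 6 and 6494 to 10931 (median 8508) in peritumoral liver. The groups were well apart, with a log2 fold change of -1.10 ± 0.11 (SE, adjusted p = 1.48e-07). *Dmgdh* (chr13:93674433-93752833, plus strand) lies 36.5 kb from *Bhmt* (chr13:93616675-93637961, minus strand), and both act on the route from betaine to sarcosine. *Sardh*, the sarcosine dehydrogenase and the most abundant gene of the class, had 7687 to 10112 in tumors (median 8934) and 11227 to 17013 in peritumoral liver (median 13232), at -0.58 ± 0.094 (SE, adjusted p = 4.86e-05). *Pipox*, the peroxisomal sarcosine and pipecolate oxidase, was lower, at -0.66 (adjusted p = 3.59e-06), and *Sds*, the serine dehydratase, by -0.95 (adjusted p = 0.0149) with overlapping groups. Of the words of *Sds*, 21.21% are shared, mostly with the overlapping antisense *Plbd2*. *Sdsl*, a serine dehydratase-like gene, had 119 to 179 in tumors and 72.8 to 190 in peritumoral liver (log2 fold change 0.39 ± 0.17, adjusted p = 0.0725), and *Agxt*, the alanine-glyoxylate aminotransferase, had a log2 fold change of -0.06 ± 0.22 (adjusted p = 0.863).

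Both enzymes that carry proline to glutamate were lower. *Prodh*, the proline dehydrogenase, had 945, 626, 808, 802, 1188 and 788 in tumors 1 to 6 and 1828 to 4112 (median 2356) in peritumoral liver. No tumor reached the lowest peritumoral library, and the log2 fold change of -1.55 ± 0.18 (SE, adjusted p = 9.80e-07) had the greatest size of the 39 members in this comparison. *Aldh4a1*, the next step, had 4136 to 5438 (median 4602) against 5582 to 9196 (median 6930), at -0.59 ± 0.099 (SE, adjusted p = 7.04e-05). *Prodh2*, which acts on hydroxyproline, did not pass, at -0.25 ± 0.15 (SE, adjusted p = 0.2).

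Both lysine genes were lower in tumors. *Dhtkd1*, a subunit of the 2-oxoadipate dehydrogenase, had 657, 606, 635, 652, 1085 and 560 in tumors 1 to 6 and 1060 to 1753 in peritumoral liver, at -0.98 ± 0.15 (SE, adjusted p = 2.48e-05). Only tumor 5 overlapped. *Aass*, the first enzyme of lysine breakdown, had 3229 to 5437 (median 3765) against 5202 to 10107 (median 6858), at -0.84 ± 0.15 (SE, adjusted p = 1.44e-04).

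Of the 3 branched-chain genes, 2 were lower. *Bckdhb*, the E1 beta subunit of the branched-chain ketoacid dehydrogenase, had 813, 833, 842, 888, 660 and 799 in tumors and 1114 to 1478 in peritumoral liver, without overlap, at -0.64 ± 0.071 (SE, adjusted p = 8.03e-07). *Bckdha*, the E1 alpha subunit, had 2190 to 2819 (median 2608) against 2536 to 3755 (median 3242), at -0.34 ± 0.082 (SE, adjusted p = 0.0026). *Hibch*, a later step of valine breakdown, did not pass, at -0.24 ± 0.10 (SE, adjusted p = 0.0667). It passed in 2 of the 14 fits that left out a library, at -0.38 (adjusted p = 3.09e-04) without DEN T-WD replicate 5 and at -0.27 (adjusted p = 0.0456) without DEN PT-WD replicate 7. Of the words of *Bckdha*, 49.55% are shared with another gene, mostly with the antisense *B3gnt8*, and the strand setting of the counting is not given in the sources used here.

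Histidine genes were split. *Hal*, the first step, had 3165 to 5378 in tumors (median 3585) and 3960 to 7693 in peritumoral liver (median 5616), at -0.61 ± 0.14 (SE, adjusted p = 0.0019), and *Uroc1*, the second, was lower, at -0.32 (adjusted p = 0.0115). The later steps did not pass: *Amdhd1* had a log2 fold change of -0.11 ± 0.082 (adjusted p = 0.295). *Ftcd*, the last step, had 3599 to 5000 in tumors (median 4383) and 3774 to 6389 around them (median 4349), at -0.10 ± 0.11 (adjusted p = 0.512).

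None of the alanine and aspartate aminotransferases passed in tumors. *Gpt* had 2701 to 3373 (median 3165) against 2685 to 4400 (median 3334), at -0.13 ± 0.10 (adjusted p = 0.362). *Gpt2*, its mitochondrial counterpart, had 8623 to 14750 (median 12777) against 9329 to 14301 (median 11037), at 0.15 ± 0.12 (adjusted p = 0.363). *Got1*, the cytosolic aspartate aminotransferase, had 1300 to 3412 against 1548 to 8840, at -0.71 ± 0.33 (adjusted p = 0.0929). Its value rested on single libraries, at -0.35 (adjusted p = 0.32) without DEN PT-WD replicate 7 and at -0.90 (adjusted p = 0.0455) without DEN T-WD replicate 1.

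**Figure D3:**
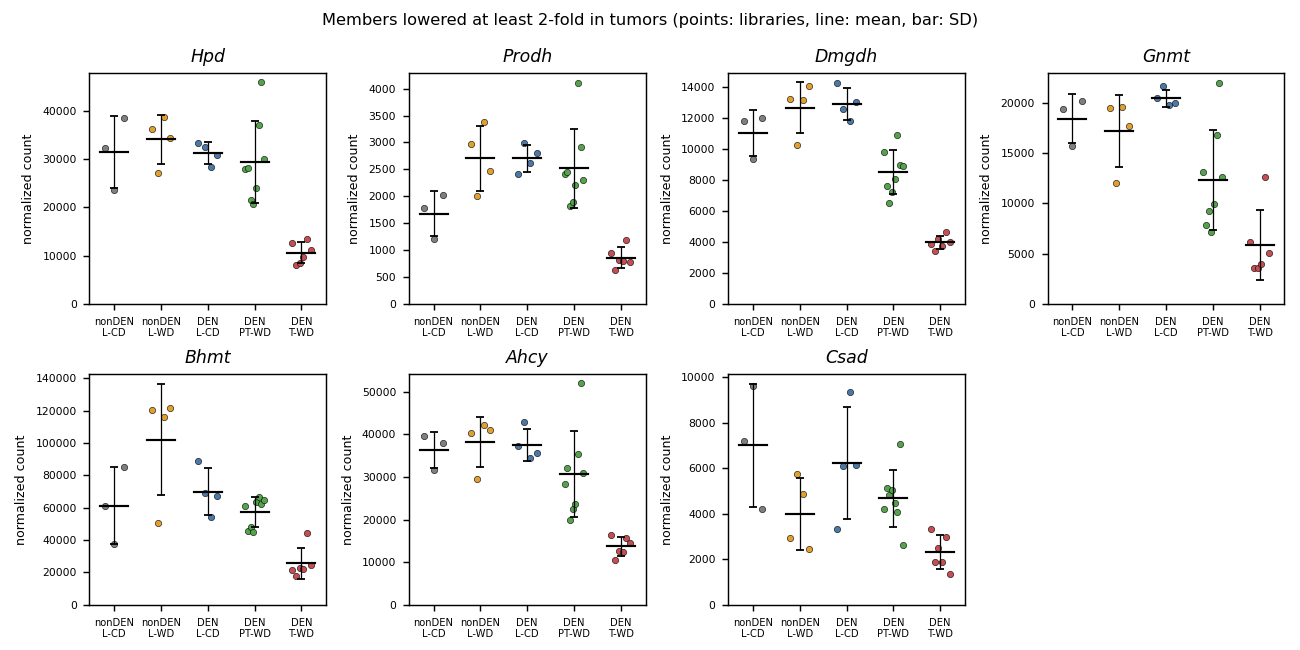
Each panel shows the normalized counts (vertical axis, from 0) of a gene past both thresholds in tumors, in every library of the 5 groups (horizontal axis), with the mean as a line and the SD as a bar. For *Hpd*, *Prodh*, *Dmgdh*, *Bhmt* and *Ahcy* all tumors lie below all peritumoral libraries, while *Gnmt* and *Csad* overlap.

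The 29 calls were each kept when any of the 14 tumor and peritumoral libraries was left out, and 20 were kept in all 23 alternatives. Without the 8 libraries in which pancreas acinar genes summed to over 1000 TPM, 21 members were lower, where the share of all genes called lower went from 18.1% to 10.6%. The 8 calls lost there were *Gnmt*, *Tdo2*, *Cth*, *Sds*, *Uroc1*, *Mat1a*, *Kmo* and *Bckdha*. With limma on log2(TPM + 1) 32 of 39 members were below 0 in place of 36, and 4 were lower past both thresholds. In that fit the median of all genes was 0.09, and 36 members were below it. The share of all genes past both thresholds in that fit is not given. Without DEN PT-WD replicate 7, *Acmsd* (0.87) and *Sdsl* (0.57) were higher in tumors, while without DEN T-WD replicate 1 *Acmsd* was at 0.14 (adjusted p = 0.796). DEN T-WD replicate 5 was above the other 5 tumors for 19 members and below them for 8. The shares of all genes for which it was the highest or lowest tumor were not computed. Markers of other cells and zones moved with the comparison. Of 8 hepatocyte genes 4 rose (*Alb* by 0.89, *Apoa1* by 1.04, *Ahsg* by 1.14, *Trf* by 0.90 on the log2 scale) and 0 fell, and their summed level was 63229 to 98624 TPM in peritumoral liver, 158628 to 182413 TPM in 5 tumors and 48342 TPM in replicate 5. All 8 pericentral genes fell, with sums of 1475 to 3178 TPM against 5001 to 8275 TPM, and of 6 periportal genes 4 fell and 1 rose (2157 to 4344 against 2904 to 6336 TPM). Of 5 bile duct genes *Sox9* and *Spp1* rose (385 to 833 against 72.7 to 324 TPM in sum), and of 7 macrophage genes 4 fell (102 to 211 against 137 to 287 TPM). Of 6 cell cycle genes 5 rose, of 6 stellate genes 2 rose and 3 fell, of 6 endothelial genes 1 rose and 1 fell, and of 7 T and B cell genes 0 were called. Of 11 pancreas acinar genes 0 were called, with a median log2 fold change of -2.20 and sums of 23.2 to 1737 TPM in tumors and 9.82 to 6945 TPM around them. No defining marker of hepatocytes was at 0 in any library. The part of these cell and zone differences in the values of the enzymes was not tested.

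A second list held 52 other genes of amino acid breakdown, of which 51 were tested. It shares *Oat* with the pericentral markers and *Gls2* with the periportal markers, so the lists are not separate observations. In tumors 31 of them were lower and 4 higher, where 18.1% of all genes were lower and 19.5% higher, with a median log2 fold change of -0.39. Those past both thresholds included *Oat* (ornithine aminotransferase, -1.82, adjusted p = 3.88e-08), *Suox* (sulfite oxidase, -1.15, 1.00e-07) and *Aadat* (aminoadipate aminotransferase, -1.02, 6.80e-05). *Pycr1*, which makes proline rather than degrading it, was higher by 2.03 (adjusted p = 0.0011). Of 15 known regulators of such genes, 7 were lower and 1 was higher, beside the same shares of all genes. *Nr1i3*, the constitutive androstane receptor, was the only regulator past both thresholds, at -1.46 (adjusted p = 2.42e-05), *Cebpb* was lower, at -0.63 (adjusted p = 3.37e-04) and *Hnf4a* had a log2 fold change of 0.04 (adjusted p = 0.791).

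The comparison of nonDEN L-WD with nonDEN L-CD asked what the diet did without carcinogen. Here 10 members were higher, against 11.2% of all genes, and 4 were lower, against 12% of all genes. Past both thresholds 1 was higher (3.24% of all genes) and 2 were lower (2.04%). All WD libraries lay above all CD libraries for 10 members (15.6% of all genes) and below them for 5 (15.2%). The median was 0.14 over the members and 0.01 over all genes. The higher genes included all 3 of the branched-chain class, 2 of 4 of the histidine class (*Uroc1* at 0.43 and *Ftcd* at 0.44) and 2 of 3 of the proline class.

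*Dhtkd1* had 780, 621 and 852 normalized counts on CD and 1853, 1248, 2052 and 1632 on WD. Every WD library exceeded every CD library, and the log2 fold change was 1.17 ± 0.21 (SE, adjusted p = 4.83e-04). *Bckdhb* had 992, 877 and 1060 on CD and 1500, 1422, 1546 and 1270 on WD, at 0.56 ± 0.10 (SE, adjusted p = 5.15e-04). *Bckdha* rose by 0.38 (adjusted p = 0.0211) and *Hibch* by 0.46 (adjusted p = 0.0237), both without overlap.

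*Aldh4a1* had 6672, 5532 and 6527 on CD and 9816, 8708, 10200 and 7863 on WD, at 0.55 ± 0.14 (SE, adjusted p = 0.00682). *Prodh* rose by 0.69 (adjusted p = 0.0416), with overlapping groups. *Gpt* had 2550, 2365 and 2926 on CD and 4327, 3071, 4743 and 3488 on WD, at 0.58 ± 0.15 (SE, adjusted p = 0.00692). *Sardh* rose by 0.45 (adjusted p = 0.016).

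The 4 lower members were *Acmsd*, *Sdsl*, *Cbs* and *Kmo*. *Acmsd* had 1056, 543 and 1313 on CD and 307, 219, 264 and 308 on WD, at -1.82 ± 0.50 (SE, adjusted p = 0.0109). *Sdsl* had 156, 200 and 285 on CD and 98.5, 82.3, 94.8 and 91.6 on WD, at -1.22 ± 0.24 (SE, adjusted p = 9.85e-04). *Cbs* fell by 0.51 and *Kmo* by 0.35 on the log2 scale (adjusted p = 0.045 and 0.0466). *Bhmt* had 61040, 37442 and 85101 on CD against 120086, 50567, 116124 and 121530 on WD, and did not pass (0.74 ± 0.31, adjusted p = 0.086). It passed without nonDEN L-CD replicate 3 (1.05, adjusted p = 0.0428) and without nonDEN L-WD replicate 2 (0.96, adjusted p = 0.0216), and was at 0.48 without nonDEN L-CD replicate 2. Leaving out any of the 7 libraries kept *Dhtkd1*, *Bckdhb* and *Sdsl*, while the count of higher members was 2 without nonDEN L-CD replicate 2, 5 without nonDEN L-WD replicate 1 and 4 without nonDEN L-WD replicate 3 (5.78%, 8.59% and 8.2% of all genes). The count of lower members was 1 without nonDEN L-CD replicate 3, where *Acmsd* had an adjusted p of 0.0593 and 8.05% of all genes were lower, and 2 without nonDEN L-WD replicate 1, 2 or 3 (8.63% to 9.85%). Of these 7 fits, *Cbs* and *Ftcd* lost their call in 6 and *Kmo*, *Prodh* and *Uroc1* in 4.

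The values of further leading members of the classes are given library by library for the livers without DEN on CD, those without DEN on WD, and those with DEN on CD, in that order. *Tdo2* had 48739, 30433 and 51338, then 41819, 43557, 49879 and 61835, then 49512, 55059, 45268 and 46079. *Haao* had 7117, 6509 and 7016, then 7134, 6489, 7621 and 6706, then 7845, 8402, 8034 and 7737 in the same groups. The diet groups overlapped for both genes, and *Haao* in DEN L-CD was above all libraries of nonDEN L-CD. *Cdo1* had 23040, 26788 and 34771, then 32493, 24557, 35550 and 40690, then 29790, 30313, 25762 and 25672. *Gpt2* had 9621, 10874 and 13145, then 13267, 9126, 13830 and 10730, then 9773, 10928, 9859 and 10886, and *Cdo1* and *Gpt2* overlapped among all 3 groups.

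*Hal* had 5166, 3903 and 6048, then 7605, 5271, 7647 and 5703, then 7274, 7394, 6393 and 6992 in these groups. *Ftcd* had 4830, 4113 and 4970, then 6701, 5084, 6698 and 6726, then 6498, 6286, 5288 and 5941. Both of the later groups lay above nonDEN L-CD for *Ftcd*, and for *Hal* only DEN L-CD did. *Sardh* had 14346, 10519 and 13209, then 19062, 14605, 19313 and 16573, then 14586, 15873, 14460 and 15649. *Bckdha* had 3322, 2656 and 2783, then 3905, 3766, 4051 and 3485, then 3621, 3541, 3397 and 3602. For *Sardh* and *Bckdha* every library of the later groups exceeded nonDEN L-CD. *Aass* was below all of the first group in DEN L-CD, while the diet groups overlapped, at 9972, 12378 and 16158, then 10325, 6852, 10164 and 8612, then 9427, 8023, 7274 and 8635. Without DEN, *Prodh* had 1789, 1214 and 2020 on CD and 2965, 2008, 3376 and 2461 on WD. *Bhmt* had 89124, 69020, 54319 and 67001 in DEN L-CD, and *Aldh4a1* had 7177, 8004, 7065 and 8122 there.

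**Figure D4:**
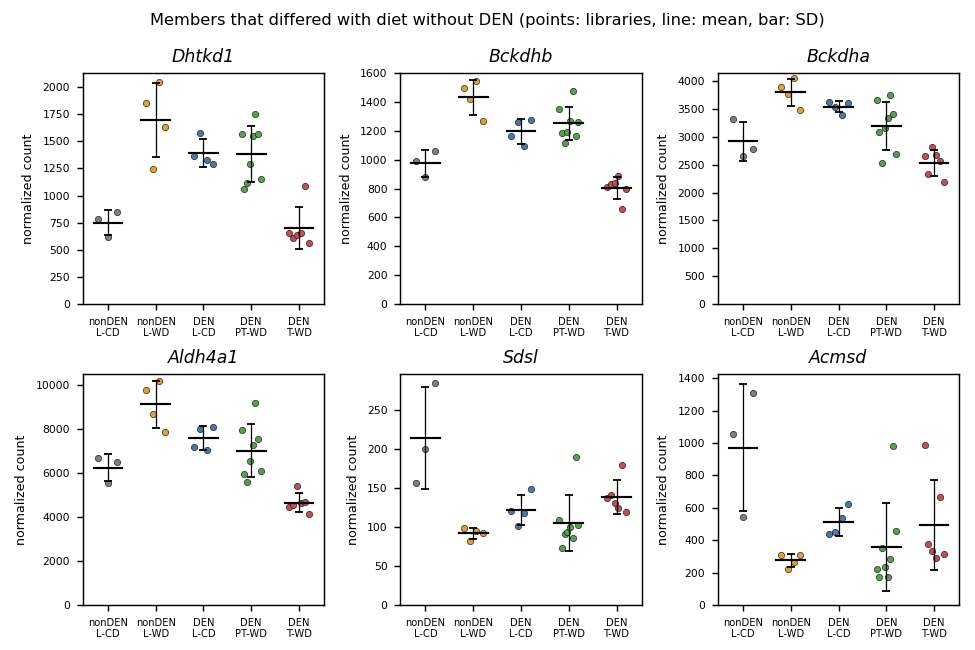
Each panel shows the normalized counts (vertical axis, from 0) of a gene in every library of the 5 groups (horizontal axis), with the mean as a line and the SD as a bar. In the absence of DEN, all 4 WD libraries lie above every CD library for *Dhtkd1*, *Bckdhb*, *Bckdha* and *Aldh4a1* and below every CD library for *Sdsl* and *Acmsd*.

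Pericentral genes also rose with diet without DEN, 5 of 8, with sums of 3970 to 4545 TPM on CD and 7291 to 9555 TPM on WD. Of the other marker lists, 2 of 6 stellate genes (*Col1a1* and *Col3a1*) and 1 of 7 T and B cell genes (*Cd79a*) rose, and 1 of 8 hepatocyte genes (*Fga*), 1 of 5 bile duct genes (*Sox9*) and 1 of 6 endothelial genes (*Lyve1*) fell. The part of these lists in the enzyme differences was not tested. Pancreas acinar genes summed to over 1000 TPM in 8 libraries, 3 of them in these groups, and without those 8 libraries 6 members were higher (8.25% of all genes) and 2 lower (8.08%). Of the 51 other breakdown genes 17 were higher and 2 lower, beside 11.2% and 12% of all genes, among them *Oat* at 0.82 (adjusted p = 0.00826) and *Hoga1*, of hydroxyproline breakdown, at 0.89 (adjusted p = 2.32e-04).

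DEN L-CD was compared with nonDEN L-CD for the carcinogen on the control diet. It gave 4 higher members, against 9.12% of all genes, and 3 lower, against 12.2%, with 0 past both thresholds in either direction (2.76% and 1.93% of all genes). At an unadjusted p under 0.05 the fold was passed by *Got1* alone (-1.02, lower), and DESeq2 and limma called 0. Over all genes DESeq2 called 478 higher and 314 lower past both thresholds. Limma on log2(TPM + 1) called 104 higher and 130 lower of 15625. The DEN L-CD libraries lay above all controls for 16 members and below them for 6, against 17.2% of all genes each way. *Dhtkd1* had 1362, 1582, 1330 and 1294 in DEN L-CD, all above the CD livers without DEN, at 0.89 ± 0.21 (SE, adjusted p = 0.0043). In the same 4 libraries *Prodh* had 2405, 2981, 2620 and 2809, *Bckdhb* 1163, 1264, 1094 and 1275, and *Gpt* 3530, 3512, 3272 and 3708. *Prodh* was higher by 0.69 (adjusted p = 0.0439), *Bckdhb* by 0.30 (0.0384) and *Gpt* by 0.42 (0.0428). *Kmo* was lower, at -0.49 (adjusted p = 0.00836), *Sdsl* by -0.81 (0.0175) and *Aass* by -0.62 (0.0352). This comparison shares its 3 control libraries with the preceding one, so the same genes appearing in both is not independent. Of the marker lists, 3 of 7 T and B cell genes (*Cd8a*, *Cd79a* and *Ms4a1*), 1 of 6 stellate genes (*Col3a1*) and 1 of 8 pericentral genes (*Lgr5*) rose, and 1 of 8 hepatocyte (*Fga*), 1 of 6 endothelial (*Pecam1*) and 1 of 5 bile duct genes (*Sox9*) fell, and their part in the enzyme values was not tested. Fitted on those groups alone it gave 10 higher and 7 lower members, where 11.5% of all genes were higher and 14.1% lower. The count of higher members was 1 or 2 without nonDEN L-CD replicate 1 or 2 or any 1 of the DEN L-CD libraries (4.26% to 8.05% of all genes). The count of lower members was 0 without nonDEN L-CD replicate 3 (8.89%) and 1 without DEN L-CD replicate 2 (9%). Of the 7 fits that left out a library, *Prodh* and *Gpt* lost their call in 6 and *Bckdhb* and *Aass* in 5.

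DEN PT-WD was compared with nonDEN L-WD for peritumoral liver against liver never given DEN, both on WD. Of the members, 9 were lower, against 4.87% of all genes, and 0 higher, against 7.5%, and 0 passed both thresholds (0.41% lower and 2.36% higher over all genes). At an unadjusted p under 0.05 20 were lower and 0 higher, DESeq2 called 11 lower and 0 higher, and limma 1 lower and 0 higher. The shares of all genes under these rules are not given, so these counts have no background beside them. All DEN PT-WD libraries lay below all nonDEN L-WD libraries for 1 member (2.92% of all genes), *Kynu*, which did not pass (-0.26, adjusted p = 0.141), and above them for 0 (3.81%). *Dmgdh* had 13229, 10243, 13151 and 14059 in nonDEN L-WD and 6494 to 10931 in DEN PT-WD, at -0.57 ± 0.12 (SE, adjusted p = 0.00413). *Bhmt* was lower, at -0.84 ± 0.24 (SE, adjusted p = 0.0252). *Kmo* (-0.43), *Pipox* (-0.38), *Ftcd* (-0.44), *Fah* (-0.31), *Sardh* (-0.37), *Aldh4a1* (-0.38) and *Cbs* (-0.49) were the other 7, with adjusted p from 0.00929 to 0.0289. On the normalized count scale 36 of 39 members were below 0, but with limma on log2(TPM + 1) 25 were. In that fit the median of all genes was 0.16, and 33 members were below it. Without the 8 libraries with pancreas transcripts 1 member was lower, where the share of all genes called lower went from 4.87% to 0.787%. Without nonDEN L-WD replicate 1, 3 or 4 there were 3, where the share of all genes called lower was 2.52%, 2.87% and 1.57%. Without DEN PT-WD replicate 6 there were 14, with a share of 6.95%. Of the marker lists, 4 of 8 pericentral genes fell, and 3 of 6 endothelial, 3 of 6 stellate, 3 of 6 cell cycle, 1 of 7 macrophage, 1 of 7 T and B cell and 1 of 5 bile duct genes rose, and their part in the enzyme values was not tested.

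Within mice given DEN, DEN PT-WD was compared with DEN L-CD for the diet. Of the members, 5 were lower, against 3.76% of all genes, and 0 higher, against 6.8%, and 0 passed both thresholds (0.378% lower and 1.52% higher over all genes). At an unadjusted p under 0.05 12 were lower and 0 higher, and DESeq2 called 8 lower and 0 higher. The shares of all genes under these rules are not given, so these counts have no background beside them. The groups did not overlap for 2 lower members, *Dmgdh* and *Kynu* (3.05% of all genes), and 0 higher (4.36%). *Dmgdh* had 14253, 12562, 11824 and 13015 in DEN L-CD, all above the peritumoral 6494 to 10931, at -0.60 ± 0.12 (SE, adjusted p = 0.00339). *Pipox* (-0.44, adjusted p = 0.00584), *Haao* (-0.49, 0.00586), *Kynu* (-0.43, 0.0218) and *Cbs* (-0.50, 0.0279) were the others. With limma on log2(TPM + 1) 15 of 39 members were below 0 in place of 36. In that fit the median of all genes was 0.23, and 34 members were below it. Fitted by limma on log2(TPM + 1), 1 member was lower and 2 were higher, beside the all-gene median of 0.23. The shares of all genes called in that fit are not given, so these counts are no result about the members. Without DEN L-CD replicate 1 or 4 there were 3 lower members, where 1.59% and 2.05% of all genes were lower, and without DEN PT-WD replicate 6 there were 8, with 5.44%. Of the marker lists, 4 of 6 endothelial, 2 of 6 stellate, 2 of 7 macrophage and 1 of 5 bile duct genes rose and 1 of 8 hepatocyte genes fell, and their part was not tested.

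The effect of diet was then compared between mice without and with DEN, by the interaction of DEN with diet in the same fit. For 9 members the diet effect was lower after DEN, against 3.74% of all genes, and for 1 it was higher, against 4.65%. Past both thresholds were *Dhtkd1* (lower, 1.18% of all genes) and *Sdsl* (higher, 1.57%). *Dhtkd1* differed by -1.19 ± 0.26 (SE, adjusted p = 0.00786), from 1.17 without DEN to -0.01 after it. *Dmgdh* differed by -0.80 and *Ftcd* by -0.81 (adjusted p = 0.0115 and 0.0135). *Pipox*, *Bckdhb*, *Aldh4a1*, *Sardh*, *Bckdha* and *Gpt* differed by -0.59, -0.49, -0.66, -0.63, -0.52 and -0.65, with adjusted p from 0.0182 to 0.0349. *Sdsl* differed the other way, by 1.02 ± 0.31 (SE, adjusted p = 0.0433), from -1.22 to -0.20. The WD liver after DEN was peritumoral, so that diet and the presence of tumors cannot be told apart there. In the same test the diet effect was higher after DEN for 2 of 6 endothelial genes and 1 of 5 bile duct genes and lower for 2 of 8 pericentral genes, and their part was not tested. Without nonDEN L-CD replicate 2, 1 member was lower (1.44% of all genes) and 0 higher, and without nonDEN L-WD replicate 3, 5 were lower (2.24%). Of the 19 fits that left out a library, the call of *Sdsl* was lost in 12 and those of *Bckdha* and *Gpt* in 7.

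**Figure D5:**
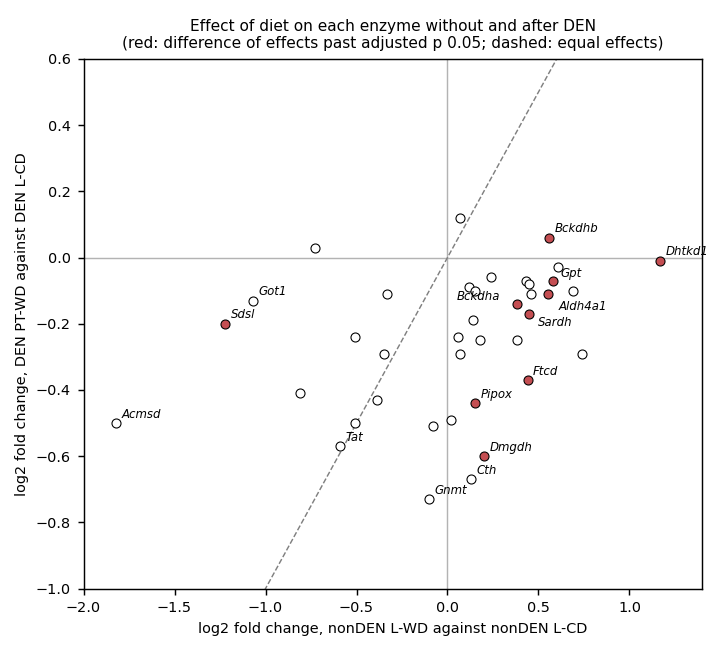
Each point is a member gene, with its log2 fold change for diet without DEN on the horizontal axis and for diet after DEN on the vertical axis, red where the difference of the effects passed an adjusted p of 0.05, and with a dashed line for equal effects. The 9 red points with a positive horizontal value lie below the line, and *Sdsl* lies above it.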

How the data were processed

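RNA sequencing of 25 mouse liver and tumor libraries in 5 groups was analyzed. FastQC, STAR and RSEM were run by the authors on the GRCm38 genome, and the deposited expected counts of RSEM are not normalized. Which STAR and RSEM releases, gene annotation and strand setting they used is not given in the sources used here. The deposited TPM values are the authors' length-corrected shares of all transcripts, and the deposited FPKM values are scaled to length and mapped reads. Libraries held 21530083 to 38074411 expected counts. For scarce members such as *Sdsl*, counting error can match the spread between libraries.

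After rounding to whole numbers, expected counts went into the quasi-likelihood test of edgeR 4.0.16 (R 4.3.3). Scaling was by TMM, low genes were removed by filterByExpr (minimum count 10), all 5 groups shared a fit, and p-values were adjusted by Benjamini-Hochberg over 15625 genes. Thresholds were an adjusted p of 0.05, and an absolute log2 fold change of 1 where a fold is named. Alternatives used DESeq2 1.42.0, limma 3.58.1 on log2(TPM + 1) and log2(TPM + 0.1), DESeq2 size factors, no filter, the replicate number as a block, only the groups compared, and each library left out. On simulated data of tumor against peritumoral 83% of 2-fold and 91% of 4-fold changes were recovered among 14405 genes, and for diet without DEN 60% and 93% among 13834 genes. No pair of libraries looked like repeat deposits of a library. Coordinates are from GENCODE M21.

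The members, lists and naming rule were chosen with earlier results of these data known. The rule gives a fold and adjusted p to members past both thresholds in any of 5 comparisons or past the adjusted p alone in tumors, and values by library (lowest, median and highest where a group has over 5) to the gene of smallest adjusted p and of highest TPM in each class. *Hibch*, *Gnmt* by library and further values outside it were chosen after they were seen, and so was the split by pancreas transcripts.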

Additional observations from a re-analysis of the deposited data

Results flagged for a closer look

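Values far from the rest of their group were looked for with Dixon's criterion in 156 combinations of member and group, of which 21 were found. The group nonDEN L-CD, with 3 libraries, was not among these combinations. The 21 values came mostly from 3 libraries. Members can move together in a library, so the rate of about 1 in 20 for independent values is no background here. In DEN T-WD replicate 5 the normalized counts of *Gnmt* (12612), *Bhmt* (44327), *Cth* (7225), *Hgd* (8250), *Hibch* (2612), *Sdsl* (179), *Aass* (5437) and *Dhtkd1* (1085) were the highest of the 6 tumors. In nonDEN L-WD replicate 2 those of *Tat* (19895), *Ahcy* (29471), *Bhmt* (50567), *Ftcd* (5084), *Hibch* (2268) and *Pipox* (4555) were the lowest of 4. In DEN PT-WD replicate 7 *Acmsd* (985), *Sds* (5457), *Sdsl* (190) and *Got1* (8840) were the highest of 8, and in replicate 6 *Prodh* (4112) and *Prodh2* (2416). *Uroc1* was highest in DEN L-CD replicate 2 (8459).

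Without DEN T-WD replicate 5 and DEN PT-WD replicate 7 together, a choice made after seeing the data, the DEN on western diet comparison had 14 lower members, where the share of all genes called lower went from 4.87% to 7.53%. The diet after DEN comparison had 10, with that share at 6.81% in place of 3.76%, and the interaction 14, with 6.27% in place of 3.74%.

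Diet effects that differed between mice without and with DEN, by the interaction term, were found for *Ftcd* (-0.81), *Aldh4a1* (-0.66), *Bckdha* (-0.52), *Bckdhb* (-0.49), *Dmgdh* (-0.80), *Sardh* (-0.63), *Pipox* (-0.59), *Dhtkd1* (-1.19) and *Gpt* (-0.65), where the effect was lower after DEN, and for *Sdsl* (1.02), where it was higher (log2 scale).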

How the results depend on the processing

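No called value turned its direction under any alternative, and of 4797 values of single members 4444 kept their side of the threshold without a call turning its direction, among them 193 that changed sign with no call in either fit. Counts of members that moved by over 1.5 times are given here, and the cause was not tested. The number of all genes called moved between these fits too. For DEN on control diet at the adjusted p alone, 1425 genes were higher in the main fit. With limma on log2(TPM + 1) 806 were, and with only the groups compared 1597. Shares of all genes are mostly not given in this paragraph, so a moved count alone is no result about the members. For diet without DEN, members lower past both thresholds were 1 with limma on log2(TPM + 1) and 1 without the libraries with pancreas transcripts. At the adjusted p alone 6 were higher without those libraries, and 2 were lower without them, with no filter, and with limma at either pseudocount. For DEN on control diet, 1 member was lower past both thresholds with only the groups compared. At the adjusted p alone 1 was higher with no filter, 10 with only the groups compared, 2 with limma on log2(TPM + 1) and 2 without the pancreas libraries, and 7 were lower with only the groups compared and 1 with limma at either pseudocount. For DEN on western diet, the lower count was 1 with limma at either pseudocount, 1 without the pancreas libraries and 14 without DEN T-WD replicate 5 and DEN PT-WD replicate 7. For diet after DEN it was 8 with DESeq2, 1 with limma at either pseudocount (which gave 2 higher) and 10 without those 2 libraries. In this comparison the median of all genes was 0.23 with limma on log2(TPM + 1) and 0.3 on log2(TPM + 0.1). It was 0.02 in the main fit. In tumors 4 members were lower past both thresholds with limma at either pseudocount, which called 1 higher, and 2 were higher without the 2 libraries. For the interaction 0 were higher with no filter, with only the groups compared and without the pancreas libraries, 3 were lower with limma at either pseudocount and 14 without the 2 libraries. Both exclusions of libraries were chosen after seeing the data. With each library left out in turn, counts past both thresholds ranged from 1 to 2 higher and 0 to 2 lower for diet without DEN, 0 to 1 lower for DEN on either diet, and 5 to 10 lower in tumors. At the adjusted p alone they ranged from 2 to 12 higher and 1 to 5 lower for diet without DEN, 1 to 4 and 0 to 3 for DEN on control diet, 3 to 14 lower for DEN on western diet, 3 to 8 lower for diet after DEN, 0 to 2 higher and 29 to 30 lower in tumors, and 0 to 1 higher and 1 to 13 lower for the interaction. Same-numbered libraries had a mean correlation of deviations of -0.01 to 0.149 over the comparisons (single pairs from -0.23 to 0.388). Differently numbered libraries had means of -0.05 to 0.002. In each comparison at least 1 same-numbered pair was under 0.1, so same-numbered libraries were not treated as paired. Only tumor and peritumoral libraries can come from the same mouse, with means of 0.071 and -0.01, and whether they do is not known. With the replicate number as a block, 5 members were lower for DEN on control diet, 12 for diet after DEN (4 past both thresholds), 1 was lower past both thresholds for DEN on western diet, and in tumors 2 were higher (1 past both thresholds). For DEN on control diet 1920 of 15625 genes were lower with the block and 1902 in the main fit. The other shares with the block are not given. Every library held at least 21530083 expected counts, and the controls without DEN on CD were 3 libraries.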

Other observations

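Among the other breakdown genes, *Hoga1*, of hydroxyproline breakdown, also differed with DEN on the control diet, by 0.95 (adjusted p = 1.30e-04), and the interaction of DEN with diet called 8 of the 51 genes lower, where 3.74% of all genes were lower (edgeR).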
